A study of Mus musculus with 10 samples.

Results

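Transcripts of 9 hepatocyte enzymes for the breakdown of the aromatic amino acids tyrosine and tryptophan were followed in the livers of mice treated with an anti-miR-122 oligonucleotide (ASO, for antisense), which blocks the most abundant microRNA of hepatocytes, and of saline-treated mice. The genes were Tat, Hpd, Hgd and Fah on the tyrosine route and Tdo2, Afmid, Kmo, Kynu and Haao on the tryptophan route. They were chosen by name, as the genes whose symbol the array annotation gives to a single-gene probe, and make up 9 of 18012 genes with a tested probe. Each is read by 1 probe except Haao, which has 2, so that 10 of 36088 tested probes are described.

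Each of the 10 livers came from 1 mouse and was measured on 1 single-colour CodeLink array, with 5 mice per group. Per the labels, the ASO group consisted of male C57Bl/6 mice that received 50 mg/kg intraperitoneally, on 2 occasions in each of 4 weeks, of an oligonucleotide of 2′-O-methoxyethyl sugars joined by phosphorothioate links. The control group received saline by the same route and schedule, with no sex or strain in its labels, and both groups were killed 2 days after the final injection. No oligonucleotide of unrelated sequence was given to the controls, so the chemistry of the ASO and the loss of miR-122 cannot be told apart. Age, feeding state and hour of killing are not in the labels.

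The liver is the main site where surplus tyrosine and tryptophan are burned. Tyrosine loses its amino group, is turned into homogentisate, and ends as fumarate and acetoacetate, and inherited loss of an enzyme on the route causes alkaptonuria or tyrosinaemia. Tryptophan is opened to formylkynurenine and passes along the kynurenine pathway, which leads either to full oxidation or to quinolinate and the coenzyme NAD. The first enzymes of both routes, Tat and Tdo2, are classic glucocorticoid-induced genes of hepatocytes.

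The sequence just upstream of the start site is shown for 4 of the genes: Haao and Afmid, which were lower in the ASO livers at an unadjusted p under 0.05, and the entry enzymes Tdo2 and Tat, which were not. Each run is the 250 bases before the RefSeq start in GRCm38.p6, 5′ to 3′ on the gene's strand, and capitals mark letters that match a searched motif. Haao lies at chr17:83846791-83847040 (minus strand), Afmid at chr11:117825669-117825918 (plus), Tdo2 at chr3:81975729-81975978 (minus) and Tat at chr8:109990186-109990435 (plus). The RefSeq promoter table matched 8 of the 9 genes. The gene without a match was Kynu, which was also lower at an unadjusted p under 0.05.
Haao: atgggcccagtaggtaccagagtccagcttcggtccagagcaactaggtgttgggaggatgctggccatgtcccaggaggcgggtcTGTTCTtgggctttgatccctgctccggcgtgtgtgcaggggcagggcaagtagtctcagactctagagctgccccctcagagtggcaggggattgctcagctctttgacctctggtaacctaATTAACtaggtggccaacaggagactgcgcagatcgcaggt
Afmid: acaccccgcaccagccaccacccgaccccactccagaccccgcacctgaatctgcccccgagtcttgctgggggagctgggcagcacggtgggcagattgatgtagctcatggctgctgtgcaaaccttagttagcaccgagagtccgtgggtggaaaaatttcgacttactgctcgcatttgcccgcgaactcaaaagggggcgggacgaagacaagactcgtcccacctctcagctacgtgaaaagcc
Tdo2: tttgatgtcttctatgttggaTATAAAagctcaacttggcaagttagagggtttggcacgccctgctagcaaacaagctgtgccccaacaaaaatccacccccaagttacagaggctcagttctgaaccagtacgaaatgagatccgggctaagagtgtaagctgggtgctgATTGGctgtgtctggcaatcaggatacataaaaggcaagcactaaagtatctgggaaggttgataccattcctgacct
Tat: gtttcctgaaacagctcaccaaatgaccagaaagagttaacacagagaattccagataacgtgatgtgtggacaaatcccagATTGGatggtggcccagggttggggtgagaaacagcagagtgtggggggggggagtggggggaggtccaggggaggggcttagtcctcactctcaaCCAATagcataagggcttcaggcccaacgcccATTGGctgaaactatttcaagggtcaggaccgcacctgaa

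The motifs searched, on both strands except the first, which was read on the gene's strand, were TATAAA, the glucocorticoid receptor core TGTTCT, the HNF1 core GTTAAT, the HNF4 core CAAAGT, the E-box CACGTG and the CCAAT box CCAAT. Among 32841 promoters of the same length in the table, 7.59% held TATAAA, 16.1% TGTTCT, 6.43% GTTAAT, 12.6% CAAAGT, 6.02% CACGTG and 33.9% CCAAT. Haao held TGTTCT starting 164 bases before its start and GTTAAT, read on the other strand, at 41 bases. Afmid held none of these letters. Tdo2 held TATAAA at 229 bases and CCAAT at 78, and Tat held CCAAT at 168, 72 and 40 bases. These matches describe the letters in the window and nothing about binding.

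The probe annotation and the liver origin were checked on other genes. Hepatocyte markers were bright on all arrays (mean log2 levels of 7.57 to 10.1 over 7 measured genes). In the ASO group 6 of the 7 were higher and 1 lower, where 59.9% of probes above the median level had a difference below 0. None of these markers had an unadjusted p under 0.05 by limma. Their summed intensity was 3094 to 7785 in saline and 6863 to 9168 in ASO livers. Among 10 reported miR-122 targets, each by its brightest probe, 9 were higher after the ASO. Of these, 5 had a p under 0.05, such as Ndrg3 (log2 difference 0.92 ± 0.22 SE). The 1 target that was lower also had a p under 0.05, against 4.58% of all probes higher and 6.66% lower at that p. Bckdk and Cd320 were among the higher targets at that p, at 1.22 ± 0.25 and 0.69 ± 0.20. A second, dimmer probe of each did not repeat this, at -0.12 ± 0.27 for Bckdk and 0.15 ± 0.27 for Cd320. The list comes from earlier work on miR-122 inhibition and is no independent evidence. One array stood apart at the bright end: the highest intensity was 542 on saline replicate 1 and 1198 to 2333 on the other 9. The hepatocyte marker Alb was also lowest on that array. Its log2 difference was 0.57 over all livers and 0.33 without saline replicate 1.

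All 5 enzymes of the tryptophan route had a lower mean in the ASO livers, and 3 of them, Afmid, Haao and Kynu, by 1.80-fold, 1.99-fold and 2.01-fold. Because whole liver was measured, fewer cells of a type and less RNA per cell cannot be told apart. On the tyrosine route, Tat and Hpd stood close together in both groups, and Hgd and Fah had lower means whose size depended on single mice. The size for Afmid did so too, with a log2 difference of -0.85 over all livers and -0.56 without ASO replicate 4. None of the 9 genes passed the Benjamini-Hochberg threshold of 0.05 over all probes in limma, which 0.0637% of all tested probes did. At an unadjusted p under 0.05, 3 of 9 genes were lower and 0 higher, against 6.66% of all probes lower, 4.58% higher and 11.2% in either direction. Because these enzymes are bright, the share among probes above the median level is the closer background, and it was 10.4% lower and 3.66% higher. The median difference over the 9 genes was -0.62 on the log2 scale, with 8 lower and 1 higher, where 59.9% of probes above the median level and 50.3% of all probes had a difference below 0. Over all tested genes the median was -0.04, and over genes above the median level it was -0.11.

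**Figure D1:**
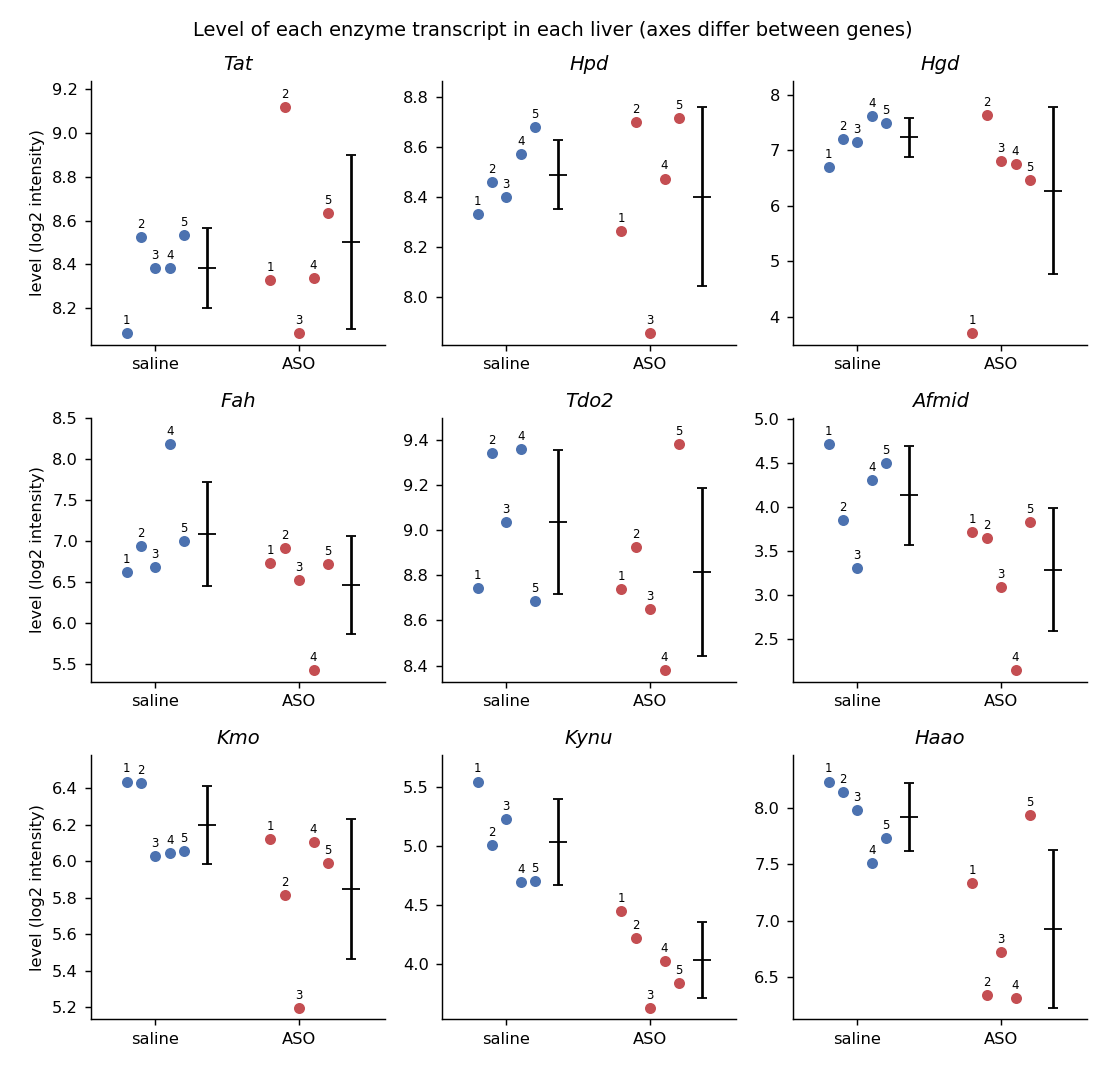
Log2 intensity of each of the 9 enzyme transcripts in each of 5 saline (blue) and 5 ASO (red) livers, with replicate numbers above the points and the mean ± SD as black bars. For Kynu every ASO liver lies below every saline liver, while for Hgd a single ASO liver at 3.70 sits far below the rest.

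Kynu encodes kynureninase, the enzyme that cuts kynurenine and hydroxykynurenine into anthranilates. Its log2 levels were 5.55, 5.01, 5.23, 4.69 and 4.71 in saline replicates 1 to 5 and 4.45, 4.22, 3.63, 4.02 and 3.84 in ASO replicates 1 to 5. The groups did not overlap, which was the case, lower in the ASO group, for 1 of the 9 genes and for 1.43% of all tested probes (2.29% of those above the median level). In either direction it was 2.37%, and higher in the ASO group 0.939%. The saline mean was 5.04 ± 0.36 and the ASO mean 4.03 ± 0.32 (SD, 5 livers each), a 2.01-fold lower level. The log2 difference was -1.01 ± 0.22 (SE, 95% interval -1.49 to -0.52, limma p = 0.000742, adjusted p = 0.156, exact permutation p = 0.00794). By p it ranked at place 172 of the 36088 probes. The exact permutation p, two-sided, is the smallest that 5 against 5 livers can give. Leaving out any 1 array kept the difference between -1.11 and -0.88.

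Haao encodes hydroxyanthranilate dioxygenase, which acts just after kynureninase and makes the precursor of quinolinate. At its brighter probe the levels were 8.23, 8.14, 7.98, 7.51 and 7.73 in the saline livers and 7.34, 6.34, 6.72, 6.31 and 7.94 in the ASO livers. ASO replicates 1 to 4 lay below all saline livers, and ASO replicate 5 lay within the saline range, above 2 of the 5. The difference was -0.99 ± 0.31 (SE, 95% interval -1.67 to -0.31, limma p = 0.00815, adjusted p = 0.280, exact permutation p = 0.0317), which is 1.99-fold. Without ASO replicate 5 the difference was -1.24.

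The second Haao probe, annotated to the same transcript record, gave the same order of livers in the ASO group except for its lowest 2. Its levels were 7.84, 7.22, 7.35, 7.41 and 6.88 in saline mice and 6.94, 5.96, 6.29, 6.10 and 7.41 in ASO mice. Again ASO replicate 5 was the highest of its group, and 3 ASO livers lay below all saline livers. The difference was -0.80 ± 0.29 (SE, limma p = 0.0181, adjusted p = 0.347, exact permutation p = 0.0635). Across the 10 livers the 2 probes followed each other with Pearson r = 0.94 and, with group means removed, 0.88.

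Afmid encodes the formamidase that turns formylkynurenine into kynurenine. Saline livers stood at 4.71, 3.84, 3.30, 4.31 and 4.49, and ASO livers at 3.71, 3.65, 3.09, 2.14 and 3.83. All 5 ASO livers were below the saline mean, but saline replicate 3 lay below 3 of them. The difference was -0.85 ± 0.36 (SE, 95% interval -1.63 to -0.07, limma p = 0.0358, adjusted p = 0.408), and an exact permutation test gave p = 0.0556. It was -0.56 without ASO replicate 4, the lowest liver, and the unadjusted p was under 0.05 in 12 of 19 settings of the processing, the reported one included.

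Kmo, the monooxygenase that adds a hydroxyl group to kynurenine, showed a smaller difference. Its levels were 6.44, 6.43, 6.03, 6.04 and 6.05 in saline livers and 6.12, 5.81, 5.20, 6.11 and 5.99 in ASO livers, so the groups overlapped over a narrow band. The difference was -0.35 ± 0.21 (SE, 95% interval -0.81 to 0.10, limma p = 0.117, adjusted p = 0.552, exact permutation p = 0.135). It was -0.19 without ASO replicate 3 and -0.18 under quantile normalization.

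Tdo2, the tryptophan dioxygenase that commits tryptophan to this route in hepatocytes, was bright in every liver. Its levels were 8.75, 9.34, 9.04, 9.36 and 8.69 in saline mice and 8.74, 8.92, 8.65, 8.38 and 9.38 in ASO mice. The highest and the lowest liver both belonged to the ASO group. The difference was -0.22 ± 0.22 (SE, 95% interval -0.71 to 0.27, limma p = 0.346, adjusted p = 0.743, exact permutation p = 0.317), so a decrease of the size seen for Kynu lies outside the interval. Saline replicate 1 had the lowest bright end of the 10 arrays (highest log2 value 9.08), and the part of this lower bright end in the Tdo2 value there was not tested. Without that array the difference was -0.29, and it was -0.11 without ASO replicate 4. Whether Tdo2 differed less than Kynu or Haao was not tested.

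**Figure D2:**
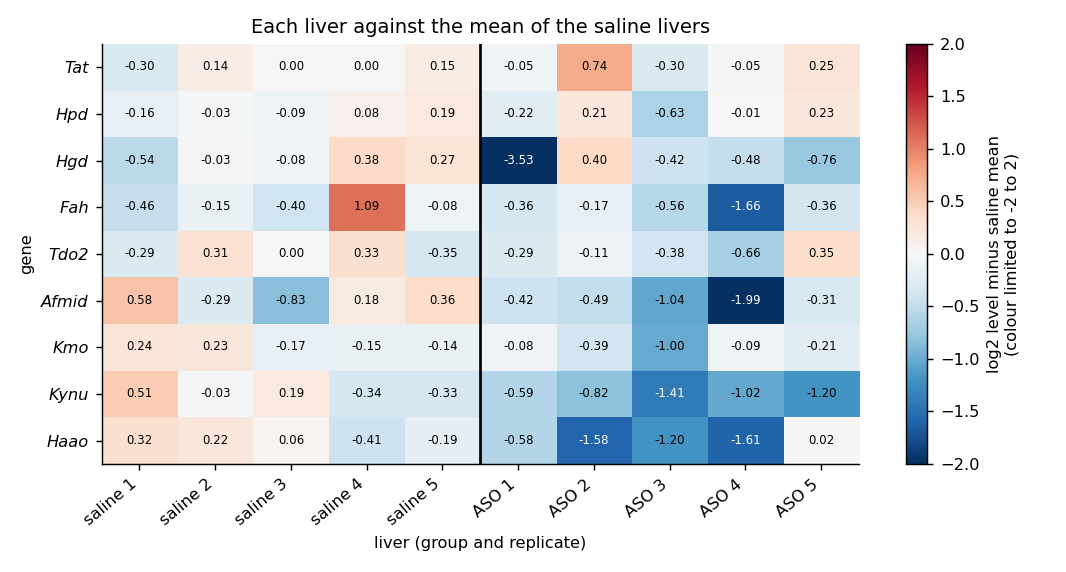
Log2 level of each gene (rows) in each liver (columns) minus the mean of the 5 saline livers, with blue for lower and red for higher and colours limited to -2 to 2. ASO replicates 1, 3 and 4 are below the saline mean in all 9 genes, whereas ASO replicates 2 and 5 are below it in 6 and 5.

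On the tyrosine route, Tat encodes the aminotransferase that takes the amino group from tyrosine. Its levels were 8.08, 8.52, 8.38, 8.38 and 8.53 in saline livers and 8.33, 9.12, 8.09, 8.34 and 8.64 in ASO livers. ASO replicates 1, 3 and 4 lay within the saline range, and ASO replicates 2 and 5 lay above it. The difference was 0.12 ± 0.21 (SE, 95% interval -0.33 to 0.57, limma p = 0.576, adjusted p = 0.863, exact permutation p = 0.571), and -0.03 without ASO replicate 2. Without saline replicate 1, where Tat was lowest of the saline livers, it was 0.04.

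Hpd encodes the dioxygenase that makes homogentisate and is the target of the drug nitisinone. Saline livers held 8.33, 8.46, 8.40, 8.57 and 8.68, and ASO livers 8.26, 8.70, 7.85, 8.47 and 8.71. The ASO livers spread wider (SD 0.36 against 0.14, n = 5 each) around a like mean, with ASO replicate 3 the lowest. The difference was -0.09 ± 0.19 (SE, 95% interval -0.51 to 0.33, limma adjusted p = 0.900), and 0.05 without ASO replicate 3. Without saline replicate 1, where Hpd was lowest of the saline livers, it was -0.13. The part of the lower bright end of that array in the Tat and Hpd values was not tested. For Tat and Hpd the intervals exclude a 2-fold change in either direction but not smaller ones.

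Hgd, the dioxygenase that opens the ring of homogentisate and is lost in alkaptonuria, had the widest spread of the 9 genes. Its levels were 6.69, 7.20, 7.15, 7.61 and 7.50 in saline livers and 3.70, 7.63, 6.81, 6.76 and 6.47 in ASO livers. A single liver, ASO replicate 1, set the range of 15.2-fold within the ASO group, and 4 ASO livers lay at 6.47 to 7.63. The difference of -0.96 ± 0.59 (SE, limma p = 0.130, adjusted p = 0.565, exact permutation p = 0.167) was -0.31 without that liver. On the same array the other 8 genes were at -0.59 to -0.05 relative to their saline means (log2).

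Fah encodes fumarylacetoacetate hydrolase, the last step, whose loss causes the hepatorenal form of tyrosinaemia. Its levels were 6.63, 6.94, 6.68, 8.18 and 7.00 in saline livers and 6.73, 6.92, 6.52, 5.42 and 6.73 in ASO livers. The remaining 8 livers lay together at 6.52 to 7.00, with saline replicate 4 above and ASO replicate 4 below them. The difference was -0.62 ± 0.35 (SE, 95% interval -1.38 to 0.14, limma p = 0.0993, adjusted p = 0.531, exact permutation p = 0.151). Without saline replicate 4 it was -0.35, and leaving out ASO replicate 4 gave -0.36.

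**Figure D3:**
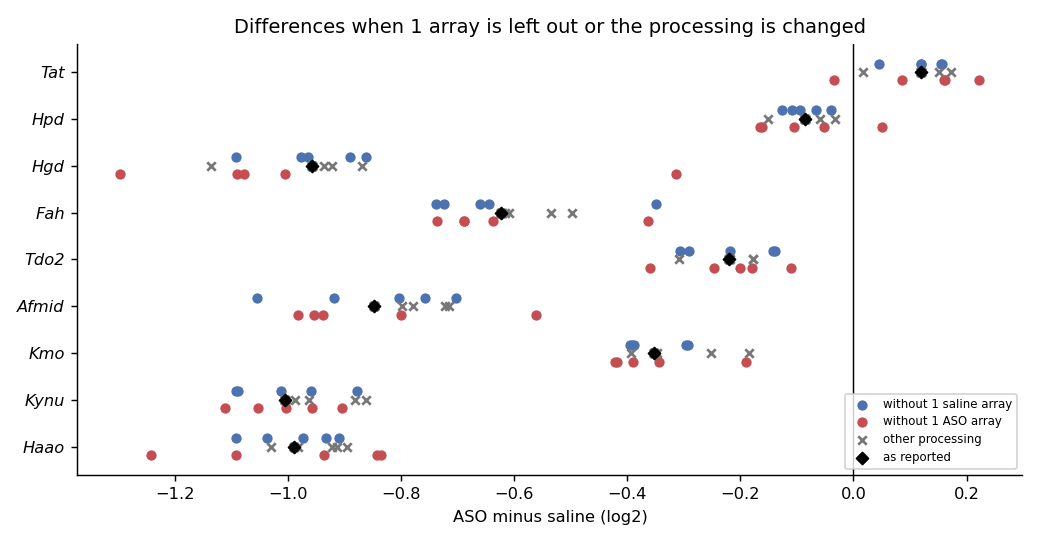
Difference between ASO and saline livers (log2, horizontal axis) for each gene as reported (black diamonds), without 1 saline array (blue), without 1 ASO array (red) and under the other processing settings (grey crosses). Kynu stays between -1.11 and -0.86 and Haao between -1.24 and -0.84, whereas Hgd moves from -0.96 to -0.31 without 1 ASO liver and Tat and Hpd cross 0.

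The order of the livers differed between the members. Across the 10 livers Tat and Hpd followed each other most closely (Pearson r = 0.74, and 0.80 with group means removed), and Kmo and Kynu did so on the tryptophan route (0.73 and 0.62). Kynu and Haao had r = 0.69, which was 0.22 with group means removed. Fah went with Afmid (0.71 and 0.60) and with Tdo2 (0.69 and 0.64), and all 3 were lowest in ASO replicate 4. These values describe 10 arrays that share processing and groups, and carry no test.

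For each member, the other gene with the most similar profile over the 10 livers was taken among 11430 single-gene probes above the median level. Kynu was closest to Wdr25 (Pearson r = 0.98), Haao to Wbp11 (0.97), Afmid to Tnfaip2 (0.96) and Kmo to Ccdc171 (0.96). Hgd was closest to Sema4a (0.97), Hpd to Pogk (0.95), Fah to Serpina10 (0.94), Tat to Brms1 (0.90) and Tdo2 to Olfr1257 (0.87). A best match among so many probes is high by selection, and none of these partners was another member. Wdr25 and Wbp11 were themselves lower in the ASO livers (log2 differences of -0.87 ± 0.20 and -1.60 ± 0.40 SE).

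The rest of both pathways was given by 17 measured genes chosen by function. Among these 17 genes 5 were lower at an unadjusted p under 0.05 and 0 higher, and 3 had groups that did not overlap, against 6.66% and 1.43% of all probes and 10.4% and 2.29% of probes above the median level. None passed the adjusted threshold in limma. Their median difference was -0.11, close to that of genes above the median level.

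On the kynurenine side, the lower genes were Aadat, Qprt and Acmsd. Aadat, an aminotransferase that makes kynurenic acid, stood at 4.38, 4.09, 4.33, 4.23 and 3.83 in saline and 3.64, 2.67, 3.36, 2.98 and 3.13 in ASO livers, with no overlap. Its difference was -1.02 ± 0.21 (SE, limma adjusted p = 0.132). Qprt, which turns quinolinate into an NAD precursor, had levels of 2.11, 2.07, 1.78, 2.48 and 2.47 in saline and 1.45, 1.41, 1.16, 1.22 and 1.45 in ASO livers, also without overlap. Its difference was -0.84 ± 0.18 (adjusted p = 0.140). Acmsd, the decarboxylase that draws the pathway away from NAD, had a difference of -0.69 ± 0.28 (adjusted p = 0.387), with groups that overlapped.

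The other 8 kynurenine and NAD genes had an unadjusted limma p of 0.05 or more. Aldh8a1, a dehydrogenase of the oxidative branch, was at -0.14 ± 0.27, and the aminotransferase genes Kyat1 and Kyat3 were at 0.05 ± 0.35 and 0.00 ± 0.17 (SE). The second Kyat3 probe, a dim one, gave -0.01 ± 0.30. The NAD synthesis genes Nmnat1, Nmnat3 and Nadsyn1 were at -0.34 ± 0.30, -0.11 ± 0.18 and 0.11 ± 0.19. Ido2, a second hepatic tryptophan dioxygenase, was at -0.57 ± 0.33 (adjusted p = 0.539), and Ido1, the form of immune cells, at 0.27 ± 0.34, with 2 of its 10 values at the floor of the scale.

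On the tyrosine side, both aspartate aminotransferases were lower at an unadjusted p under 0.05. Cytosolic Got1 stood at 4.05, 3.89, 3.29, 4.78 and 3.70 in saline and 2.73, 2.74, 1.16, 2.06 and 3.05 in ASO livers, without overlap. Its difference was -1.59 ± 0.37 (SE, limma adjusted p = 0.180), or 3.01-fold. Mitochondrial Got2, which also acts on kynurenine, was at -0.51 ± 0.18 (adjusted p = 0.322). Gstz1, the maleylacetoacetate isomerase between Hgd and Fah, was at 0.17 ± 0.23. The genes that make or recycle the cofactor tetrahydrobiopterin were near 0, with Qdpr at -0.07 ± 0.34, Pcbd1 at -0.04 ± 0.16 and Gch1 at 0.11 ± 0.22.

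**Figure D4:**
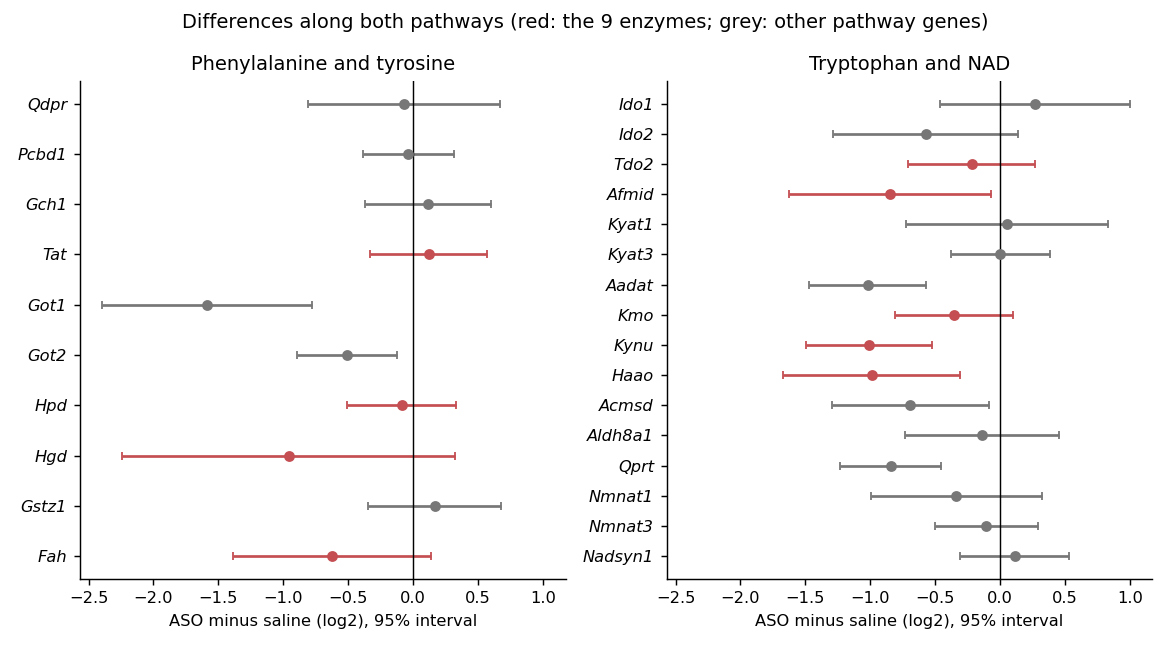
Difference between ASO and saline livers (log2) with its 95% limma interval for the 9 enzymes (red) and 17 other genes of the pathways (grey), in approximate pathway order from top to bottom. The intervals of Afmid, Kynu, Haao, Aadat, Acmsd, Qprt, Got1 and Got2 lie below 0. Those of Tat, Hpd, Hgd, Fah, Tdo2 and Kmo, and of all remaining grey genes, include it.

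Of 16 measured genes for the breakdown of other amino acids, 13 had a lower mean in the ASO livers, with a median difference of -0.39, where 59.9% of probes above the median level had a difference below 0. At an unadjusted limma p under 0.05, 6 were lower and 0 higher, against 10.4% and 3.66% of those probes, and 0 passed the adjusted threshold. Ftcd, a histidine and folate enzyme, had a difference of -1.15 ± 0.20 (SE, limma adjusted p = 0.0853), Hal, which starts histidine breakdown, -1.08 ± 0.36 (adjusted p = 0.297), and Aldh7a1, of lysine breakdown, -0.67 ± 0.22 (adjusted p = 0.301). All 5 measured urea cycle genes had a lower mean, 2 of them at an unadjusted p under 0.05 and 0 past the adjusted threshold, against the same shares of 59.9% and 10.4%. Asl was at -0.70 ± 0.22 (limma adjusted p = 0.279), Nags at -0.44 ± 0.17 (adjusted p = 0.359) and Arg1 at -0.32 ± 0.16. A second Asl probe gave -1.51 ± 0.30 (adjusted p = 0.132). Whether the tyrosine and tryptophan enzymes differed from these lists was not tested.

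Of 6 measured aromatic amino acid transporters, 2 were lower and 1 higher at an unadjusted p under 0.05 by limma, against 6.66% and 4.58% of all probes, and 0 passed the adjusted threshold. Slc16a10, which carries aromatic amino acids across the hepatocyte membrane, had a difference of -0.99 ± 0.30 (SE, adjusted p = 0.273) and Slc43a1 of -0.81 ± 0.26 (adjusted p = 0.283). Slc7a8 was at 0.63 ± 0.20 (adjusted p = 0.280), close to the floor of the scale in saline livers (mean -2.26).

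Genes that control the pathway, or that share its inducers, were described beside it. Of 12 measured glucocorticoid receptor and response genes 1 was higher and 1 lower at an unadjusted p under 0.05 by limma. Their median difference was 0.05, and 0 passed the adjusted threshold. Over all probes the shares at that p were 4.58% higher and 6.66% lower. Sgk1 was at 0.60 ± 0.23 (SE), Fkbp5 at 0.46 ± 0.23 and Igfbp1, which insulin also represses, at -1.19 ± 0.23. Of 9 measured hepatocyte transcription factors 1 was higher at that p, Onecut1 at 1.18 ± 0.31 (adjusted p = 0.228), while Foxa2 was at 0.31 ± 0.23 and Nr5a2 at -0.39 ± 0.28.

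Clock genes were included because Tat is an enzyme with a known daily rhythm. Of 14 measured, 3 were lower and 2 higher at an unadjusted p under 0.05 by limma, against 6.66% and 4.58% of all probes, with a median difference of -0.03, and 0 passed the adjusted threshold. The differences were -1.07 ± 0.23 (SE, adjusted p = 0.151) for Arntl, -1.19 ± 0.38 (adjusted p = 0.282) for Nr1d1 and -0.77 ± 0.27 (adjusted p = 0.320) for Clock. Their part in the enzyme differences was not tested, and the hour of killing is not in the labels.

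Macrophages also use kynureninase and the monooxygenase. Of 10 measured Kupffer cell and macrophage markers 7 were lower, against 59.9% of probes above the median level and 50.3% of all probes. None of these markers had an unadjusted p under 0.05 by limma. Their summed intensity was 148 to 361 in saline and 62.3 to 350 in ASO livers. Lymphocyte markers were lower in 5 of 7, 3 of them at that p (6.66% of all probes) and 0 past the adjusted threshold, with summed intensities of 8.61 to 13.3 and 7.05 to 9.12, and Ptprc, Klrb1c and Cd3e reached the floor on some array. The part of these cells in the lower Kynu and Kmo levels was not tested.

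At an unadjusted limma p under 0.05, 1 endothelial, 1 kidney and 1 pancreas marker were higher and 1 bile duct and 1 pancreas marker lower. At that p 0 stellate or red blood cell markers were found in either direction, and 0 of all these passed the adjusted threshold. The shares over all probes at that p were 4.58% higher and 6.66% lower, and 50.3% of all probes had a difference below 0. Endothelial markers were lower in 4 of 8 (summed 63.5 to 113 in saline and 41.3 to 127 in ASO livers), stellate cell markers in 5 of 8 (121.9 to 181 and 107 to 178) and bile duct markers in 3 of 6 (7.33 to 10.1 and 7.05 to 9.64). Red blood cell markers were lower in 1 of 3 (50.3 to 103 and 31.7 to 86.3). Tubule markers of the kidney, an organ that also holds kynurenine enzymes, were higher in 4 of 5 and lower in 1, and dim (2.57 to 3.44 and 2.84 to 4.50). Pancreas markers were lower in 2 of 5 and dim (1.99 to 2.33 and 1.64 to 2.25), 4 of them at the floor on some array.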

How the data were processed

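Liver RNA of 10 mice (5 saline, 5 ASO) was measured on single-colour CodeLink arrays with a biotin label, per the labels. The authors' deposited values are intensities on a linear scale, already on a common median (1.03 to 1.05 per array) and partly at or below 0. The software, background correction and scaling are not given in sources used here.

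Of 36227 probes, 139 with fewer than 3 values in a group were left out. The lowest values were raised to a floor of 0.192, which is the 10th percentile of the intensities above 0, before taking log2, so differences of dim probes are understated. Probes were named through the platform annotation where it gives 1 gene (21615 probes), with symbols looked up by Entrez ID (21487 matched, 0 changed) in a table of GRCm38.p6. Each gene was read by its brightest probe.

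Differences are ASO minus saline, fitted per probe with limma 3.58.1 in R 4.3.3 without covariates, two-sided, and p-values were adjusted by Benjamini-Hochberg over every tested probe, with 0.05 as threshold. Intervals of 95% are limma's. Exact permutation tests used the 10 livers. The labels number no replicates, so numbers follow accession order, and p-values measure the spread between mice, whose number limits the precision. No batch is given.

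All members, all other genes of both pathways and, of other lists, up to 3 genes with the smallest p were to be named. The latter were printed only where a result turns on them. Members and lists were chosen with earlier results of these data known. On simulated data of 36088 probes for this comparison, a true 1.5-fold change was called for 2 of 67 probes. A 2-fold change was called for 15 of 67 and a 4-fold change for 53 of 66, with 4 false calls. The changed probes all lay above the median level and the noise was drawn independently for each probe, so these shares hold for that setting only. Alternatives covered normalization, floor, filter, moderation, array weights, probe choice and each array left out. Promoter letters are RefSeq's. Motifs were chosen after the values were seen.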

Additional observations from a re-analysis of the deposited data

Results flagged for a closer look

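In 5 of the 56 groups of 5 livers examined among the enzymes and the other pathway genes, 1 liver stood far from the others of its group by Dixon's criterion. Chance gives about 1 in 20. Fah, the last enzyme of tyrosine breakdown, had both its groups among them. Its level was 8.18 (log2) in saline replicate 4, where the other saline livers lay at 6.63 to 7.00, and 5.42 in ASO replicate 4, where the other ASO livers lay at 6.52 to 6.92. Qdpr, which recycles the cofactor tetrahydrobiopterin, stood at 6.77 in saline replicate 5 against 8.37 to 8.71. Got2 stood at 6.83 in the same liver against 7.35 to 7.48. Kyat1 stood at 3.79 in ASO replicate 2 against 5.23 to 5.72. The ASO group of Hgd, with ASO replicate 1 at 3.70 against 6.47 to 7.63, was not among these 5. The criterion divides the gap by the range of the group, so it does not rank livers by distance alone.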

How the results depend on the processing

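No enzyme passed the adjusted threshold under any of the 19 settings run. From 2 to 4 of the 9 had an unadjusted limma p under 0.05, all of them lower. As reported it was 3, beside 2403 of all 36088 probes lower at that p. With quantile normalization it was 2 beside 1921 probes lower, and with cyclic loess 2 beside 2110. With 1 array left out, probes lower at that p numbered from 1662 of 36048 (without saline replicate 1) to 3036 of 36066 (without ASO replicate 5). Kynu had the smallest adjusted p of 0.084 when only probes above the median level were tested, and its largest was 0.369, without saline replicate 1. The median of the 9 differences ranged from -0.74 to -0.39 when 1 array was left out, and the lesser value was without saline replicate 4. Of all probes, 23 passed the adjusted threshold as reported, 39 with cyclic loess, 7 without the floor, 73 among probes above the median level, 42 with trend and robust moderation, and 0 to 16 with 1 array left out. The median difference of probes above the median level was -0.08 as deposited, 0.02 after quantile normalization and 0.00 after cyclic loess. There were 1330 values of 75 gene differences under the alternatives, with both Haao probes counted, and not every gene among them is printed above. Of these values, 1303 kept direction and side of the threshold, 24 turned sign and 3 newly passed it. These 3 were Ftcd with the pseudocount (adjusted p = 0.0444) and among probes above the median level (0.0415), and Igfbp1 among the latter (0.0445). Differences that turned sign when 1 array was left out ranged from -0.035 to 0.22 for Tat, -0.16 to 0.050 for Hpd, -0.42 to 0.067 for Qdpr, -0.095 to 0.031 for Pcbd1, -0.0076 to 0.23 for Gch1, -0.012 to 0.47 for Ido1, -0.32 to 0.012 for Aldh8a1, -0.12 to 0.37 for Kyat1, -0.069 to 0.085 for Kyat3, -0.65 to 0.023 for Lyve1 and -0.21 to 0.093 for Umod. Pcbd1 was also at 0.0052 with quantile normalization and 0.029 with cyclic loess, Nmnat3 at 0.00014 with quantile normalization and Kyat3 at -0.0042 as a mean of its probes. The causes were not tested. No paired analysis was possible because the labels number no replicates.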
